A study of Cricetulus griseus with 9 samples.

Results

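The genes described here write, maintain and remove DNA methylation. They were chosen by name and by mouse Ensembl identifier, by a rule that uses no measured value but was set with earlier results of these data known, as Dnmt1, Dnmt3a, Dnmt3b, Uhrf1, Tet1, Tet2, Tet3 and Tdg. Of these 8 genes, 6 had a row among the 15557 genes of the deposited table. The identifiers of Tet1 (ENSMUSG00000047146) and Tet2 (ENSMUSG00000040943) were in neither the table nor its gene models, so no level was measured for them, and nothing can be said of their expression. Of the 6 genes with a row, 5 reached a mean of 1 FPKM over all libraries, the limit set for testing, as did 9504 genes in all. FPKM count fragments relative to the length of a gene model and the size of the library.

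Transcripts were measured in CHO-K1 cells, an established line from Chinese hamster ovary, in 9 poly(A) RNA libraries. All cells grew in IMEM with 5% charcoal-stripped serum and received a small RNA with Lipofectamine RNAiMAX for 48 h, and the groups were anti-miR-29a, pre-miR-29a and pre-miR-29b-1, with 3 libraries each. A pre-miR is a synthetic precursor that raises its microRNA, and the anti-miR is an inhibitor stated by the submitters to block both miR-29a and miR-29b-1. The series text speaks of separate transfection experiments, and if each molecule had its own, experiment and group cannot be told apart. Cells without miR-29 reagents were not analysed here, so the comparisons with anti-miR-29a set more miR-29 against less and have no untreated level. Whether replicate libraries stem from different cultures is not stated, so the p-values reflect variation among these 9 libraries and may capture technical spread alone. The submitters checked the change of the microRNAs by quantitative PCR. Those values were not used here, and mature microRNAs are not in the table. Since the table gives identifiers without names, markers of the line could not be checked.

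DNA methylation is laid down on cytosine by Dnmt3a and Dnmt3b and copied after replication by Dnmt1, which Uhrf1 guides to newly made DNA. The Tet enzymes oxidize methylcytosine, and Tdg, a DNA glycosylase, cuts out some of the oxidized bases so that repair can put back plain cytosine. In other mammalian cells miR-29 is known to pair with transcripts of Dnmt3a, Dnmt3b, the Tet genes and Tdg, which is why writers and erasers are described together.

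Steps in the FPKM of low genes implied library sizes of 15880000 to 21850000 reads, and between 11338 and 12074 genes were above 0. These sizes were not counted directly and would include any scaling of libraries by the authors. The number of genes above 0 was lower with anti-miR-29a, at 11338 to 11400, than with pre-miR-29a, at 11794 to 11912, or pre-miR-29b-1, at 11933 to 12074. Implied library sizes also differed, at 15880000 to 18780000 with anti-miR-29a, 17420000 to 19950000 with pre-miR-29a and 19560000 to 21850000 with pre-miR-29b-1. The part of depth in the number of genes above 0 was not tested. Correlations of log2 values across genes were 0.988 to 0.995 within groups and 0.961 to 0.971 between pre-miR and anti-miR-29a libraries. The libraries were uneven, and pre-miR-29a replicate 1 lay farthest from its group, with an estimated weight of 0.213 against 3.54 for replicate 3. Results that turn on it are given with and without it.

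Dnmt3a, the enzyme that sets new methylation marks, had the largest fold fall of the 5 tested writers and erasers. A test of ratios, given below, did not set its fall apart from those of Tet3 and Tdg. With anti-miR-29a the level of Dnmt3a was 12.8, 12.9 and 13.05 FPKM in replicates 1 to 3. It was 4.09, 3.59 and 3.04 FPKM with pre-miR-29a and 4.69, 4.45 and 4.11 FPKM with pre-miR-29b-1. Every pre-miR library was well below every anti-miR-29a library, and the highest pre-miR value was under 5 FPKM. Means were 12.9 ± 0.11 FPKM (SD, n = 3) with anti-miR-29a, 3.58 ± 0.52 FPKM with pre-miR-29a and 4.42 ± 0.29 FPKM with pre-miR-29b-1. The ratio of these means was 3.62-fold lower with pre-miR-29a and 2.93-fold lower with pre-miR-29b-1. On the log2(FPKM + 1) scale used for all tests, which understates changes of low genes, Dnmt3a fell by 1.61 (SE 0.095) with pre-miR-29a, and the p adjusted over all tested genes (limma, Benjamini-Hochberg) was 5.07e-07. The fall with pre-miR-29b-1 was smaller, 1.36 (SE 0.095), and its adjusted p was 1.93e-06 (limma).

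The Dnmt3a values rested on 519 to 618 implied reads per anti-miR-29a library and on 134 to 259 per pre-miR library. For pre-miR-29a replicate 3, the lowest, 134 reads gave an exact 95% Poisson interval of 2.55 to 3.61 FPKM, and for anti-miR-29a replicate 1 the interval was 11.8 to 13.9 FPKM. Such intervals cover counting error only. The SD of 0.11 FPKM among the anti-miR-29a libraries was narrower than these counting intervals. The gene (ENSMUSG00000020661) occupies positions 780430 to 852314 of scaffold JH000061 in the CriGri_1.0 assembly, minus strand, and its 22 coding exons sum to 2724 bases. Its 3 models in the annotation have the same exons and share no bases with another gene.

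Dnmt3b, the other enzyme of new methylation, was at the limit of detection in every group. It was listed at 0 in 5 libraries, and in anti-miR-29a replicate 2, pre-miR-29a replicates 1 and 3, and pre-miR-29b-1 replicate 3 its value, 0.020 to 0.026 FPKM, corresponded to 1 implied read. Summed over 3 libraries this made 1 read with anti-miR-29a, 2 with pre-miR-29a and 1 with pre-miR-29b-1. The limit that a count of 0 allows, 3 reads, stood at 0.057 to 0.079 FPKM per library, and differences below that limit were not detectable at this depth. No fold is given, and the gene was not tested. The model of Dnmt3b (ENSMUSG00000027478), positions 360942 to 385250 of JH000311 on the minus strand, has 23 coding exons and 2604 coding bases. In the anti-miR-29a libraries, Dnmt3a was thus the only one of these de novo enzymes with more than 1 read.

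Dnmt1, the maintenance enzyme, was the most abundant of the genes on the FPKM scale with anti-miR-29a and fell slightly with both pre-miRs. Its level was 94.0, 88.6 and 94.7 FPKM in anti-miR-29a replicates 1 to 3. It was 80.6, 76.4 and 74.0 FPKM with pre-miR-29a and 84.9, 80.1 and 81.3 FPKM with pre-miR-29b-1. The groups did not overlap, but the gap was narrow: the highest pre-miR library, at 84.9 FPKM, lay just below the lowest anti-miR-29a library, at 88.6 FPKM. Means were 92.4 ± 3.35 FPKM (SD, n = 3) with anti-miR-29a, 77.0 ± 3.35 FPKM with pre-miR-29a and 82.1 ± 2.51 FPKM with pre-miR-29b-1.

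The log2 difference of Dnmt1 was -0.26 (SE 0.051) with pre-miR-29a, with an adjusted p of 0.0015 (limma). For pre-miR-29b-1 it was -0.17 (SE 0.051, adjusted p 0.0173, limma), a 1.12-fold change. The second call was not firm. After quantile normalization the value was -0.079 (adjusted p 0.221, limma), and the call also ended without pre-miR-29b-1 replicate 2 or 3 or anti-miR-29a replicate 1 or 3, with adjusted p of 0.0547 to 0.0681 (limma). Dnmt1 had 5063 to 6983 implied reads in the anti-miR-29a and pre-miR-29a libraries, so counting error was small. The model of Dnmt1 (ENSMUSG00000004099) covers 29 coding exons and 4128 coding bases on JH000173, from 1286891 to 1313534 on the plus strand.

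Uhrf1, the protein that brings Dnmt1 to replicated DNA, did not pass the test in either comparison with anti-miR-29a. Its level was 73.9, 63.1 and 69.2 FPKM in anti-miR-29a replicates 1 to 3, 81.6, 70.5 and 68.7 FPKM with pre-miR-29a, and 88.9, 75.1 and 75.0 FPKM with pre-miR-29b-1. The pre-miR-29b-1 libraries all lay above the anti-miR-29a libraries, by little, and the pre-miR-29a libraries overlapped them. Replicate 1 was the highest library of each group. Means were 68.7 ± 5.40 FPKM (SD, n = 3) with anti-miR-29a, 73.6 ± 6.99 FPKM with pre-miR-29a and 79.6 ± 7.98 FPKM with pre-miR-29b-1.

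For pre-miR-29b-1 the log2 difference of Uhrf1 was 0.21, with a 95% interval of 0.006 to 0.41 and an adjusted p of 0.0756 (limma). For pre-miR-29a it was 0.096, with an interval of -0.11 to 0.30 and an adjusted p of 0.385 (limma). The call for pre-miR-29b-1 depended on the fit: quantile normalization gave 0.31 (adjusted p 0.0167, limma), array weights 0.16 (adjusted p 0.0421, limma) and the fit without pre-miR-29a replicate 1 gave 0.21 (adjusted p 0.047, limma). A fit with a term for replicate number, which the series text does not call for, gave 0.21 with the smallest adjusted p, 0.00664 (limma). Uhrf1 (ENSMUSG00000001228) has 16 coding exons and 2346 coding bases on JH000282, from 494699 to 511605 on the plus strand.

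Tet3, the only Tet enzyme with a row in the table, was lower with both pre-miRs. Its level was 9.28, 7.70 and 8.81 FPKM in anti-miR-29a replicates 1 to 3. It was 4.24, 2.38 and 2.94 FPKM with pre-miR-29a and 4.36, 3.81 and 4.19 FPKM with pre-miR-29b-1. All pre-miR libraries were below all anti-miR-29a libraries, and pre-miR-29a replicate 1 stood above the other two of its group. Means were 8.60 ± 0.81 FPKM (SD, n = 3) with anti-miR-29a, 3.19 ± 0.95 FPKM with pre-miR-29a and 4.12 ± 0.28 FPKM with pre-miR-29b-1.

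Tet3 fell by 1.22 on the log2 scale with pre-miR-29a (SE 0.148), with an adjusted p of 6.94e-05 (limma). In the pre-miR-29b-1 libraries it fell by 0.90 (SE 0.148, adjusted p 0.000569, limma). Without pre-miR-29a replicate 1 the first of these was -1.39. Implied reads ranged from 229 in pre-miR-29a replicate 2, with an exact 95% Poisson interval of 2.09 to 2.72 FPKM, to 805 in anti-miR-29a replicate 1. The interval of pre-miR-29a replicate 1, 3.83 to 4.68 FPKM, did not reach that of replicate 2, so these libraries of 1 group differed by more than counting error. The model of Tet3 (ENSMUSG00000034832) has 9 coding exons and 5007 coding bases on JH001236, from 268507 to 310575 on the plus strand.

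Tdg, which removes some of the oxidized bases that Tet enzymes make, was lower as well. Its level was 12.7, 12.6 and 9.60 FPKM in anti-miR-29a replicates 1 to 3, with replicate 3 the lowest. It was 6.41, 4.14 and 5.81 FPKM with pre-miR-29a and 5.22, 4.35 and 5.46 FPKM with pre-miR-29b-1. The highest pre-miR library, at 6.41 FPKM, was below the lowest anti-miR-29a library. Means were 11.6 ± 1.76 FPKM (SD, n = 3) with anti-miR-29a, 5.46 ± 1.18 FPKM with pre-miR-29a and 5.01 ± 0.59 FPKM with pre-miR-29b-1.

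Tdg fell by 0.98 on the log2 scale with pre-miR-29a (SE 0.153, adjusted p 0.000375, limma). In the pre-miR-29b-1 libraries Tdg fell by 1.07 (SE 0.153, adjusted p 0.000239, limma). It had the fewest reads of the 5 tested writers and erasers, from 87 in pre-miR-29a replicate 2 to 241 in anti-miR-29a replicate 1. The interval for 87 reads was 3.32 to 5.11 FPKM. The model of Tdg (ENSMUSG00000034674), positions 598636 to 610846 of JH000616, minus strand, has 10 coding exons and 1251 coding bases. Of these bases, 1059 also belong to a model of another gene, ENSMUSG00000047347, which has further models on 2 other scaffolds, so the authors' counting could split reads between them. That gene was listed at 0.962, 0.752 and 1.10 FPKM in the anti-miR-29a libraries and at 0.111 to 0.498 FPKM in the pre-miR libraries. With both genes summed, a setting chosen after the overlap was seen, the difference between both pre-miRs and anti-miR-29a was -1.07 (adjusted p 5.73e-05, limma), close to -1.02 for Tdg alone.

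**Figure D1:**
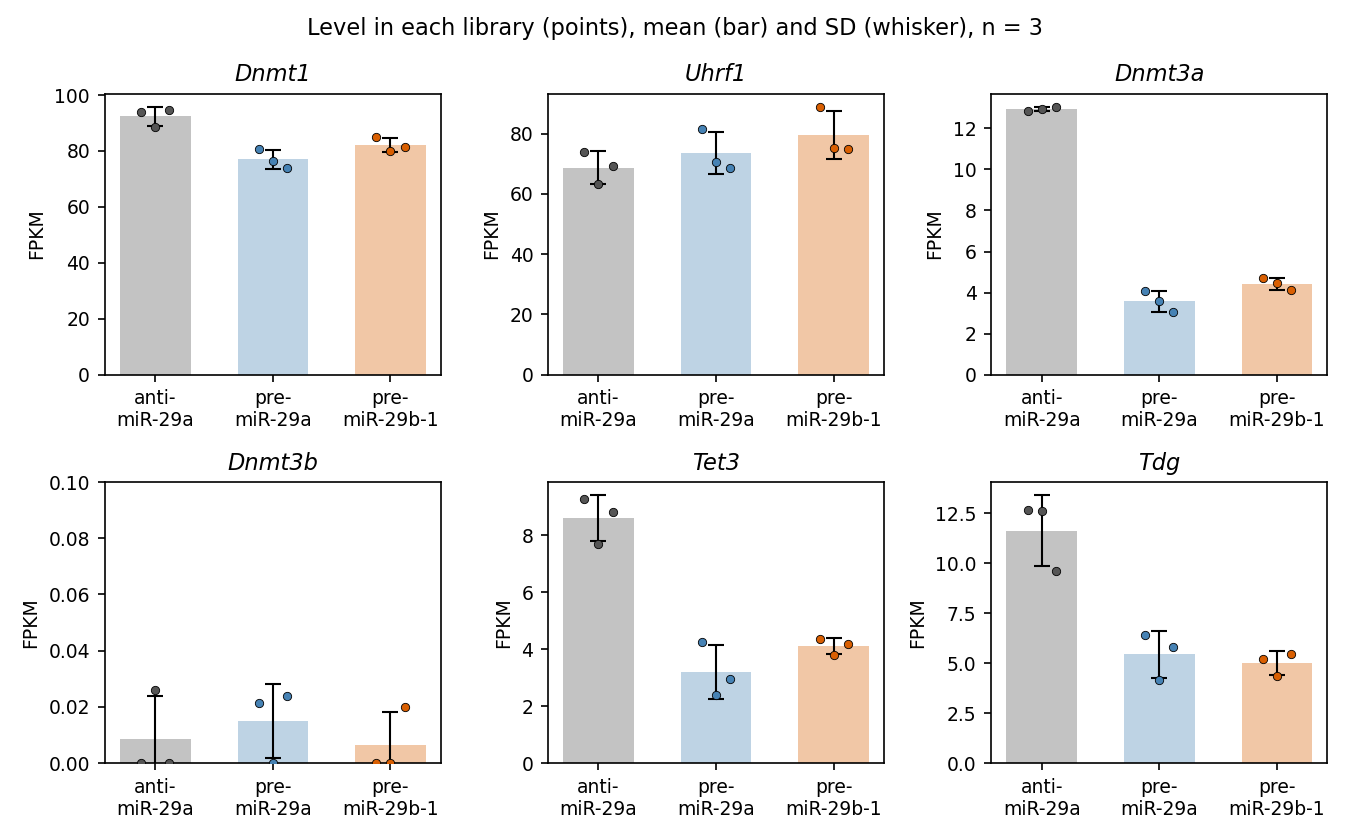
FPKM of the 6 genes with a row in the table, by group, with points for libraries, bars for the mean and whiskers for the SD (n = 3), and a separate vertical scale for each gene. Dnmt3a, Tet3, Tdg and, by a narrow gap, Dnmt1 were lower in every pre-miR library than in every anti-miR-29a library. The same held for 29.2% of all tested genes. Uhrf1 differed little, and Dnmt3b was at 0 or 1 read.

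The abundant genes, Dnmt1 and Uhrf1, thus differed little between groups, and Dnmt3a, Tet3 and Tdg, detected at lower levels, changed most. With anti-miR-29a the order of levels per length was Dnmt1, Uhrf1, Dnmt3a, Tdg, Tet3 and Dnmt3b. No neighbours in that order overlapped, but Dnmt3a and Tdg (lowest 12.8 against highest 12.7 FPKM) and Tdg and Tet3 (9.60 against 9.28 FPKM) lay within the counting intervals of single libraries. With either pre-miR, Dnmt1 and Uhrf1 overlapped, as did Dnmt3a and Tet3. Tdg came before Dnmt3a in both pre-miR groups, and with pre-miR-29b-1 these overlapped too. With pre-miR-29a the lowest Tdg value, 4.14 FPKM, and the highest Dnmt3a value, 4.09 FPKM, lay within the counting intervals of single libraries. These are bulk libraries, in which fewer cells with a transcript and less of it per cell cannot be told apart.

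Of the 5 tested genes, 4 (Dnmt1, Dnmt3a, Tet3 and Tdg) were lower with pre-miR-29b-1 than with anti-miR-29a and 0 higher. Among all 9504 tested genes, 55.2% passed the threshold in this comparison, and 29.4% passed it as lower. With pre-miR-29a the same 4 genes were lower and 0 higher, where 58.4% of all tested genes passed and 30.9% passed as lower. For pre-miR-29a these were 2613 higher and 2940 lower genes, and quantile normalization turned the balance to 3340 higher and 2494 lower. A call in these comparisons is common, so the count of calls says little about these genes. The median log2 difference of the 5 genes was -0.90 for pre-miR-29b-1 and -0.98 for pre-miR-29a, beside medians of -0.0057 and -0.016 over all tested genes. The anti-miR-29a libraries serve in both comparisons, and their values are side by side for that reason only.

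For both pre-miRs together, 4 of the 5 genes were lower, where 61.6% of all tested genes passed and 32.3% passed as lower. Quantile normalization turned the balance over all genes from 2783 higher and 3074 lower to 3529 and 2627, and it called Uhrf1 higher, at 0.24 (adjusted p 0.0224, limma). A term for replicate number also led to a call of Uhrf1 as higher, at 0.15 (adjusted p 0.0133, limma). Dnmt3a was the 104th lowest of the 9504 log2 differences, Tet3 the 315th and Tdg the 355th. Their differences from anti-miR-29a were -1.49 (SE 0.082) for Dnmt3a, -1.06 (SE 0.128) for Tet3 and -1.02 (SE 0.132) for Tdg, with adjusted p from 2.53e-07 to 9.05e-05 (limma). These 3 of 5 genes passed the threshold and were at least 2-fold lower, as did 3.81% of all tested genes. Since Tet3 and Tdg lay close to 2-fold, this count was not firm. It was 1 without pre-miR-29a replicate 2, where Tet3 stood at -0.99 and Tdg at -0.94, and 0 with a pseudocount of 5, which shrinks low genes by construction. It was 2 after quantile normalization, with array weights, or without pre-miR-29b-1 replicate 2 or anti-miR-29a replicate 1 or 2, where Tdg stood at -0.98 to -0.91. Dnmt1, at -0.21, and Uhrf1, at 0.15, lay within the bulk of the distribution, with 29.7% and 67.9% of tested genes below them. Libraries of both pre-miRs did not overlap those of anti-miR-29a for 4 of the 5 genes and for 54.6% of all genes.

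**Figure D2:**
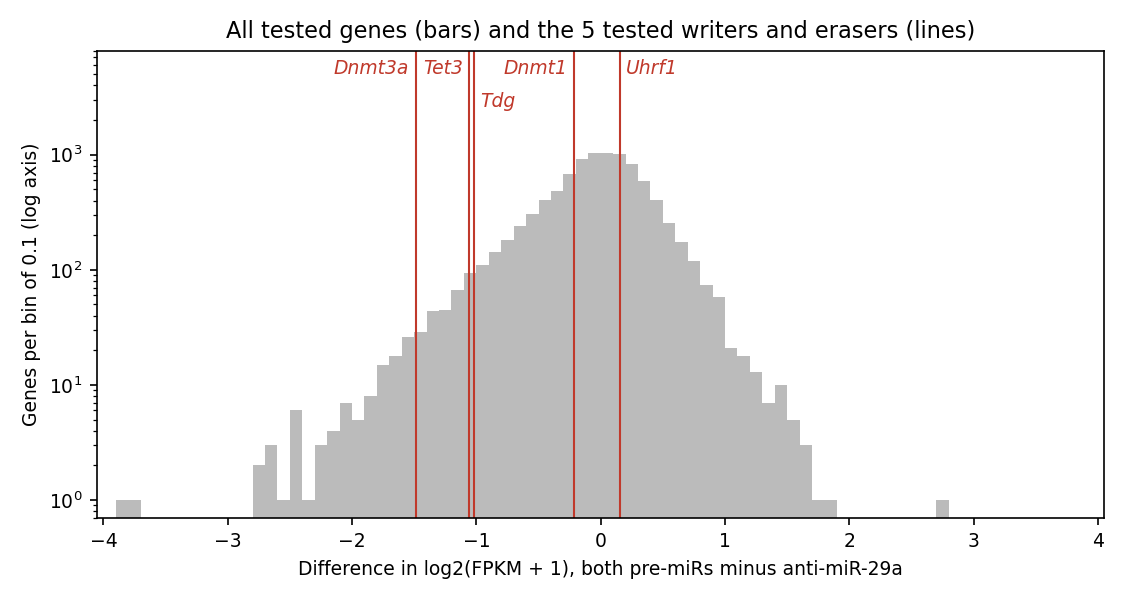
Number of tested genes (log axis) by difference in log2(FPKM + 1) between both pre-miRs and anti-miR-29a, in bins of 0.1, with a line for each of the 5 tested writers and erasers. Dnmt3a, Tet3 and Tdg, at -1.49, -1.06 and -1.02, stand in the left tail, and Dnmt1 and Uhrf1 near the centre.

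Ratios of genes within a library do not change when a library is scaled by a constant factor. They were computed after the levels had been seen. Ratios to Dnmt1 largely restate differences in level between the groups, so they are given without a test. Those among Dnmt3a, Tet3 and Tdg, whose levels all differed in the same direction, are given with a test. The ratio of Dnmt1 to Dnmt3a, maintenance to de novo enzyme, was 7.33, 6.85 and 7.26 in anti-miR-29a replicates 1 to 3. It was 19.7, 21.3 and 24.3 with pre-miR-29a and 18.1, 18.0 and 19.8 with pre-miR-29b-1. Relative to Dnmt3a there was thus more Dnmt1 transcript in each of the 6 pre-miR libraries than in each of the 3 anti-miR-29a libraries. The difference was 1.49 on the log2 scale, a 2.81-fold higher ratio.

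The ratio of Dnmt1 to Tet3 was 10.8 ± 0.68 (SD, n = 3) with anti-miR-29a, 25.4 ± 6.53 with pre-miR-29a and 20.0 ± 0.91 with pre-miR-29b-1. That of Dnmt1 to Tdg was 8.10 ± 1.54, 14.6 ± 3.35 and 16.5 ± 1.78 in the same groups. Neither overlapped between the pre-miR and anti-miR-29a libraries. Dnmt1 to Uhrf1 moved the other way, from 1.35 ± 0.068 (SD, n = 3) with anti-miR-29a to 1.05 ± 0.054 with pre-miR-29a and 1.04 ± 0.070 with pre-miR-29b-1. Its log2 difference was -0.37, again without overlap. In each of the 6 pre-miR libraries, Dnmt1 transcript was thus lower relative to Uhrf1 transcript than in each of the 3 anti-miR-29a libraries. Levels alone did not overlap for 54.6% of all tested genes. The share of other gene pairs with separate ratios was not computed, so the lack of overlap says little about these pairs.

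Dnmt3a, Tet3 and Tdg were also compared with each other. The ratio of Dnmt3a to Tet3 was 1.51 ± 0.15 (SD, n = 3) with anti-miR-29a, 1.17 ± 0.29 with pre-miR-29a and 1.07 ± 0.093 with pre-miR-29b-1, and groups overlapped. That of Dnmt3a to Tdg was 1.13 ± 0.20, 0.676 ± 0.17 and 0.891 ± 0.14. The log2 differences were -0.45 and -0.55, with unadjusted two-sided exact permutation p over 84 regroupings of 0.0476 and 0.0595. Adjusted over the 10 pairs of the 5 genes (Benjamini-Hochberg), the exact permutation p were 0.0595 and 0.0661. A stronger fall of Dnmt3a than of either eraser thus did not pass the threshold. The 10 pairs include those for which no test is given here. These lay at the smallest p that 84 regroupings allow, 0.0119, which lowers the adjusted p of the other pairs. For Tet3 to Tdg the difference was -0.11 (adjusted exact permutation p 0.619). It turned to 0.047 without anti-miR-29a replicate 3, the library with the lowest Tdg level of its group.

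**Figure D3:**
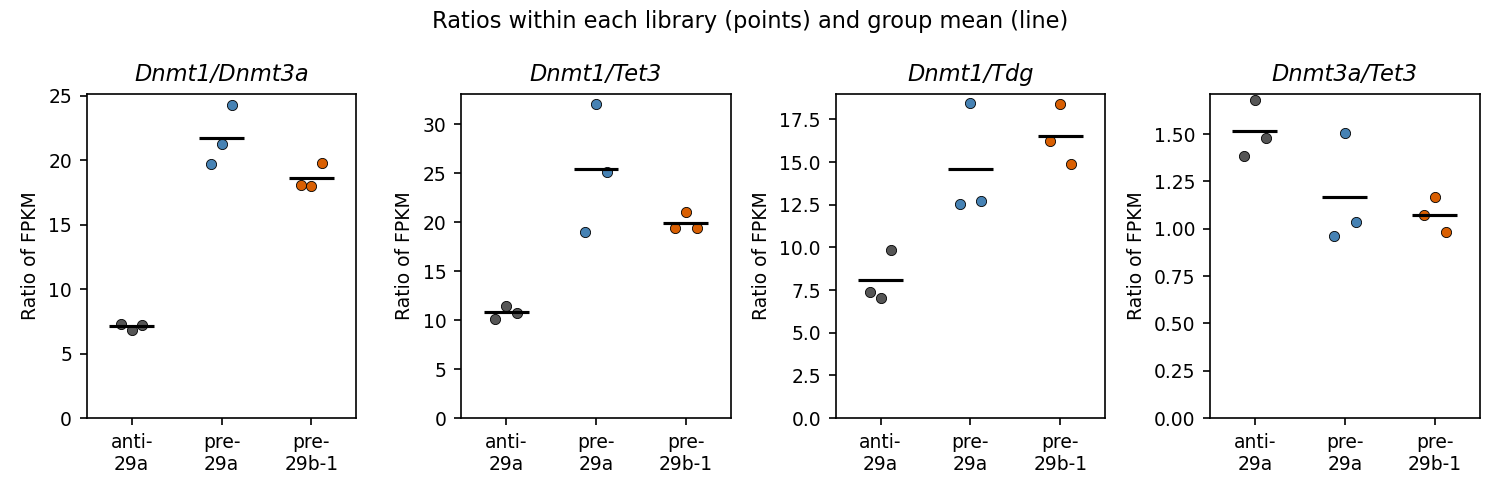
Ratios of FPKM within each library, by group, with points for libraries and a line for the group mean (n = 3). Dnmt1 relative to Dnmt3a, Tet3 and Tdg was higher in all pre-miR libraries than in all anti-miR-29a libraries, while Dnmt3a relative to Tet3 overlapped between groups.

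The pre-miR groups were compared directly for the 5 tested genes. MicroRNA levels were not used here. A difference in effect between miR-29a and miR-29b-1 thus cannot be told apart from one in the amount reached or in the transfection. None of the 5 passed the threshold (limma), and 1 of them, Dnmt3a, had an unadjusted p under 0.05. Over all tested genes 0.0105% passed, and 16.5% had an unadjusted p under 0.05. Dnmt3a was 0.25 higher on the log2 scale with pre-miR-29b-1 than with pre-miR-29a, with a 95% interval of 0.037 to 0.46 and an adjusted p of 0.261 (limma). Its libraries did not overlap between the pre-miRs, as was the case for 18.9% of all tested genes. For Tet3 the difference was 0.31, with an interval of -0.019 to 0.64 and an adjusted p of 0.322 (limma).

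The remaining intervals were -0.021 to 0.21 for Dnmt1, -0.090 to 0.31 for Uhrf1 and -0.43 to 0.25 for Tdg. The widest of these intervals, for Tet3, reached 0.64 on the log2 scale, and a p that misses the threshold does not show that the pre-miRs act alike. The calls turned on pre-miR-29a replicate 1. Without it, pre-miR-29b-1 libraries were 0.33 higher in Dnmt3a (adjusted p 0.0408, limma) and 0.49 higher in Tet3 (adjusted p 0.0314, limma), when 1370 genes passed in all. With array weights, which gave this library the lowest weight, 3 of the 5 genes passed, beside 3627 of all genes. These were Dnmt3a at 0.38, Tet3 at 0.34 and Dnmt1 at 0.12. The highest weights were 3.54 for pre-miR-29a replicate 3 and 2.95 for pre-miR-29b-1 replicate 2. Other libraries of these groups had at most 1.21, so the calls with array weights leaned on few libraries.

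**Figure D4:**
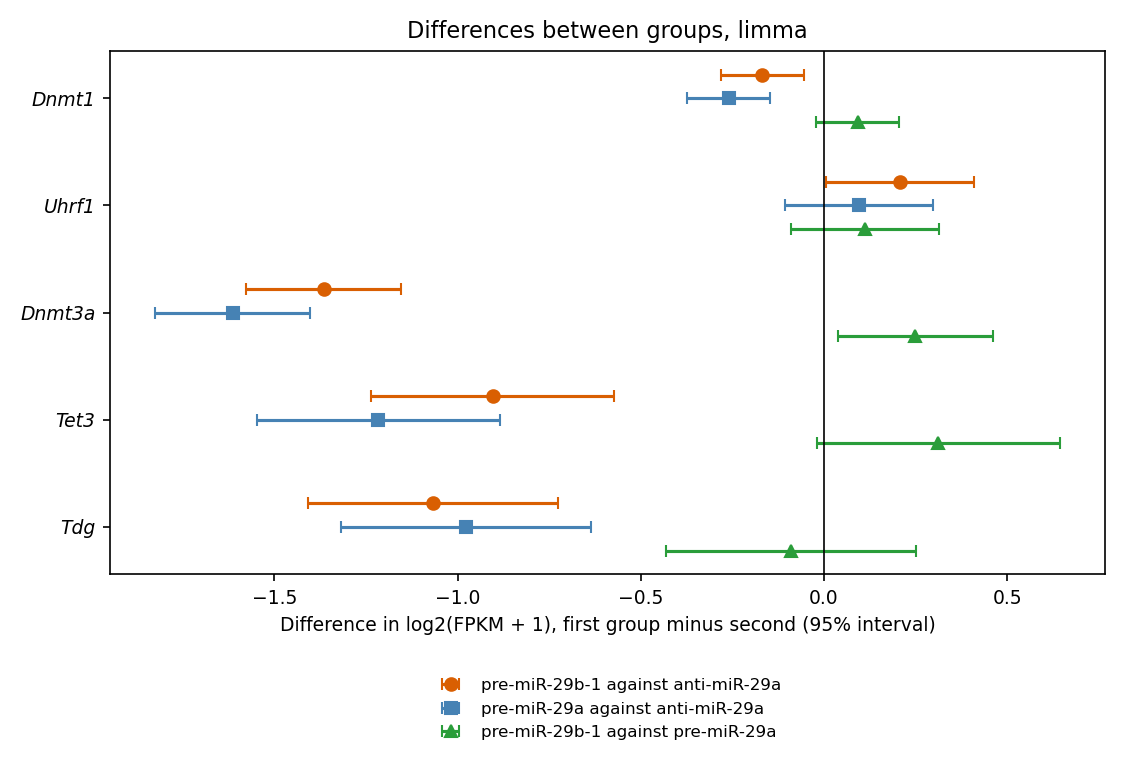
Differences in log2(FPKM + 1) between groups for the 5 tested genes, with 95% intervals from limma, the first-named group minus the second. Intervals for Dnmt3a, Tet3, Tdg and Dnmt1 against anti-miR-29a lie below 0, those for Uhrf1 include 0 or start just above it, and those between the pre-miRs include 0 except for Dnmt3a.

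The gene whose profile over the 9 libraries was most like that of Dnmt3a, by Euclidean distance between centred log2(FPKM + 1) values, was ENSMUSG00000042903, at a distance of 0.252 where the median tested gene was at 2.16. It stood at 33.5 ± 2.19 FPKM (SD, n = 3) with anti-miR-29a, 11.0 ± 0.93 FPKM with pre-miR-29a and 12.4 ± 0.41 FPKM with pre-miR-29b-1. Of the writers and erasers, Tet3 was nearest to Dnmt3a, at 0.748, with 248 tested genes nearer, followed by Tdg at 0.976. Dnmt1 and Uhrf1 lay at 1.82 and 2.34. The profile of Dnmt3b, flat at 0 or 1 read, had ENSMUSG00000022270 nearest, a gene at 51.8 to 53.3 FPKM in all groups, and with so few reads this likeness carries no information on Dnmt3b.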

How the data were processed

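Transcript levels in 9 libraries of CHO-K1 cells were taken from 1 table of FPKM per gene that the authors deposited. Per the submitters' processing notes, FastQC, TopHat2 2.0.13 and Cuffnorm were used; how libraries were scaled, the strand setting and any filter: not given in the sources used here. Per the file headers, the models come from aligning the longest mouse translation per gene (Ensembl release 66) to CriGri_1.0, and the deposited exon positions gave lengths. As 99.87% of model lengths are multiples of 3, these are coding lengths, without untranslated regions. Values of low genes fell in steps of 1 read when length was reduced by a 200-base fragment. Within 0.1 read, 98.4% to 99.4% of values of up to 5.5 reads were whole, which gave the implied reads.

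Values were tested as log2(FPKM + 1) with limma 3.58.1 (R 4.3.3), with variances moderated along a trend, 1 term per group and all 9 libraries. The 9504 genes whose mean reached 1 FPKM entered. Two-sided p-values were adjusted in each comparison by the Benjamini-Hochberg method (threshold 0.05), and the script was tested on simulated data. Ratios among Dnmt3a, Tet3 and Tdg used exact permutation of 9 libraries. All 8 genes on the list are named, whatever their values, with the nearest profile to Dnmt3a and to Dnmt3b. The genes and lists were chosen with earlier results of these data known. Names of the 8 genes came with the list. The files pair no identifier with a name, and 0 identifiers matched the 32251 genes of the RefSeq table for CriGri-PICRH-1.0, so 36 further pathway genes and the cell markers chosen could not be looked up. Alternatives changed pseudocount, filter, scaling, variance trend, weights, libraries in the fit and the replicate block. Rescaling by median of ratios used factors of 0.993 to 1.01, so this alternative differed little from the main fit. Same-numbered libraries deviated together with r of -0.018 to 0.295, over 0.1 in 6 of 9 pairs. All 9 libraries had their best match in another group at their own number. The series text names no pairs, so the main fit used no block, and results with the replicate block are given beside it.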

Additional observations from a re-analysis of the deposited data

How the results depend on the processing

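Dnmt3a, Tet3 and Tdg kept their direction and their call in each comparison with anti-miR-29a under every alternative run in which they were tested. For both pre-miRs the log2 difference ranged from -1.68 to -0.998 for Dnmt3a, from -1.24 to -0.66 for Tet3 and from -1.14 to -0.70 for Tdg, the smallest sizes with a pseudocount of 5, which shrinks low genes by construction. Leaving out 1 library, 3 to 5 of the genes were called against anti-miR-29a for pre-miR-29b-1, beside 4504 to 5744 of all genes. For pre-miR-29a 4 of the genes were called, beside 4856 to 5876 of all genes. Calls against anti-miR-29a were thus common in these fits too, and such counts say little about the writers and erasers. Between the pre-miRs the count of writers and erasers called was 0, but 3 with array weights and 0 to 2 without 1 library. Over all genes it was 1, but 3627 under array weights, 184 in the fit with the replicate block, 0 in a fit of the compared groups alone (fewer samples) and 1 to 1370 without 1 library. Otherwise the cause was not tested. The difference of Tdg between the pre-miRs, -0.09, ranged from -0.25 to 0.018 without 1 library, turning without pre-miR-29a replicate 1, and the ratio of Tet3 to Tdg (log2 difference -0.11) from -0.25 to 0.047, turning without anti-miR-29a replicate 3. With the replicate block, Uhrf1 passed with pre-miR-29b-1 (0.21, adjusted p 0.00664, limma) and both pre-miRs (0.15, adjusted p 0.0133, limma), and no other of these genes changed its call. All 9 libraries correlated best with the library of their own number in another group, a hint from the data and not from the design. Fitting only the groups compared gives nothing new for both pre-miRs, since it uses all libraries. Dnmt3b, at 0 or 1 read, allowed no test.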
